A study of Rattus norvegicus with 12 samples.

Results

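The genes of inhibitory transmission by GABA and glycine were followed in the periaqueductal grey, the midbrain tissue around the aqueduct from which descending control of pain arises. The list held 33 genes for receptor subunits, synthesis, release, uptake, breakdown, receptor anchoring and chloride transport, and it does not hold every gene of these families. Of these, 31 reached a mean of 0.5 TPM across the 12 libraries and were tested among 24540 genes. The other 2, the rho subunits Gabrr1 (mean 0.322 TPM) and Gabrr2 (mean 0.183 TPM), lay below that level. The lowest mean of a gene kept was that of Slc6a13 at 2.34 TPM. Gabra6 (mean 3.18 TPM, median 0 TPM) reached the level only through 1 library, which held 37.6 TPM. TPM, the deposited unit, is a share of all transcripts of a library after division by transcript length, so that levels of different genes can be set side by side.

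The tissue came from male Sprague Dawley rats, of which 6 had sires given saline (saline-sired) and 6 had sires given morphine (morphine-sired). The rats differ in the treatment of the father, and the labels name no treatment of the rats themselves, no age, no litter and no sire. Each of the 12 polyA libraries has an animal number of its own and is called here by its group and a number that does not pair animals. P-values treat the 12 animals as independent, although animals of 1 litter or sire could not be recognised.

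GABA, the main inhibitory transmitter of the brain, is made from glutamate by the glutamic acid decarboxylases, packed into vesicles by the vesicular inhibitory amino acid transporter, cleared by plasma membrane transporters and broken down by GABA transaminase. GABA-A receptors are chloride channels built of subunits whose mix sets their place and pharmacology, and GABA-B receptors are pairs of G protein-coupled subunits. Glycine uses related chloride channels and the same vesicular transporter. In the periaqueductal grey, GABA neurons restrain the output neurons of the descending pain pathway, and opioids are known to act in part by inhibiting GABA release there.

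Depth lay between 4.39 and 6.03 gigabases a library (median 5.15). The libraries differed in markers of neighbouring cells, and these were not evenly spread within either group. The summed level of 6 serotonergic markers ran from 22.2 to 1030 TPM in saline-sired and from 26.8 to 472 TPM in morphine-sired libraries, and Tph2, which makes serotonin, was highest in saline-sired 2 and 3 and morphine-sired 2. The summed level of 8 thalamic markers, a list drawn up after values had been seen, ran from 110 to 674 TPM and from 96.9 to 477 TPM, and that of 7 choroid plexus markers from 17.8 to 453 TPM and from 27.7 to 1810 TPM. Some lists also leaned between the groups, with 0 markers called. Choroid plexus markers had a fitted difference above 0 in 7 of 7 (3 with an unadjusted p under 0.05, limma) and microglial markers in 6 of 7 (4 with such a p), and oligodendrocyte markers had one below 0 in 7 of 7 (0 with such a p). Chat, the enzyme of acetylcholine synthesis that marks the oculomotor nuclei beside the aqueduct, was at 0.0955 TPM in saline-sired 1, 0.569 in saline-sired 6 and 1.15 in morphine-sired 1, against 17.1 to 36.4 TPM in the other 9 libraries. In bulk tissue, fewer cells of a type and less RNA per cell cannot be told apart.

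No GABA or glycine gene passed the test between the offspring groups. At an adjusted p under 0.05 (limma on log2(TPM + 1), Benjamini-Hochberg over all genes tested), 0 of the 31 members were called, as were 0 of 24540 genes (0.0%). At an unadjusted p under 0.05 again 0 of the 31 members were found, where 3.22% of all genes were (790 genes). In none of the 31 members did the 2 groups separate without overlap, which 22 genes (0.0896%) did. The smallest unadjusted p of a member was 0.131, and every adjusted p was 0.9998. The fitted difference was above 0 for 20 members and below 0 for 11, with a median of 0.01 on the log2 scale over the members and a median size of 0.04, against 0.08 over all genes.

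The intervals give the precision of this comparison. For 24 of the 31 members the 95% interval of the log2 difference lay wholly within 0.5 on either side of 0, which held for 60.6% of all genes. The other 7 were Gabra4, Gabra6, Gabrb2, Gabrd, Gabre, Gabrq and Slc6a5. These are also the 7 members whose SD of log2(TPM + 1) over the 12 libraries passed 0.5, which 19.3% of all genes did. Gabrb2 was counted by its annotated transcript alone, with an SD of 1.16. With the assembled transcripts of its locus, which have no name in the annotation, the SD was 0.47. The median SD was 0.26 over the members and 0.24 over all genes.

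**Figure D1:**
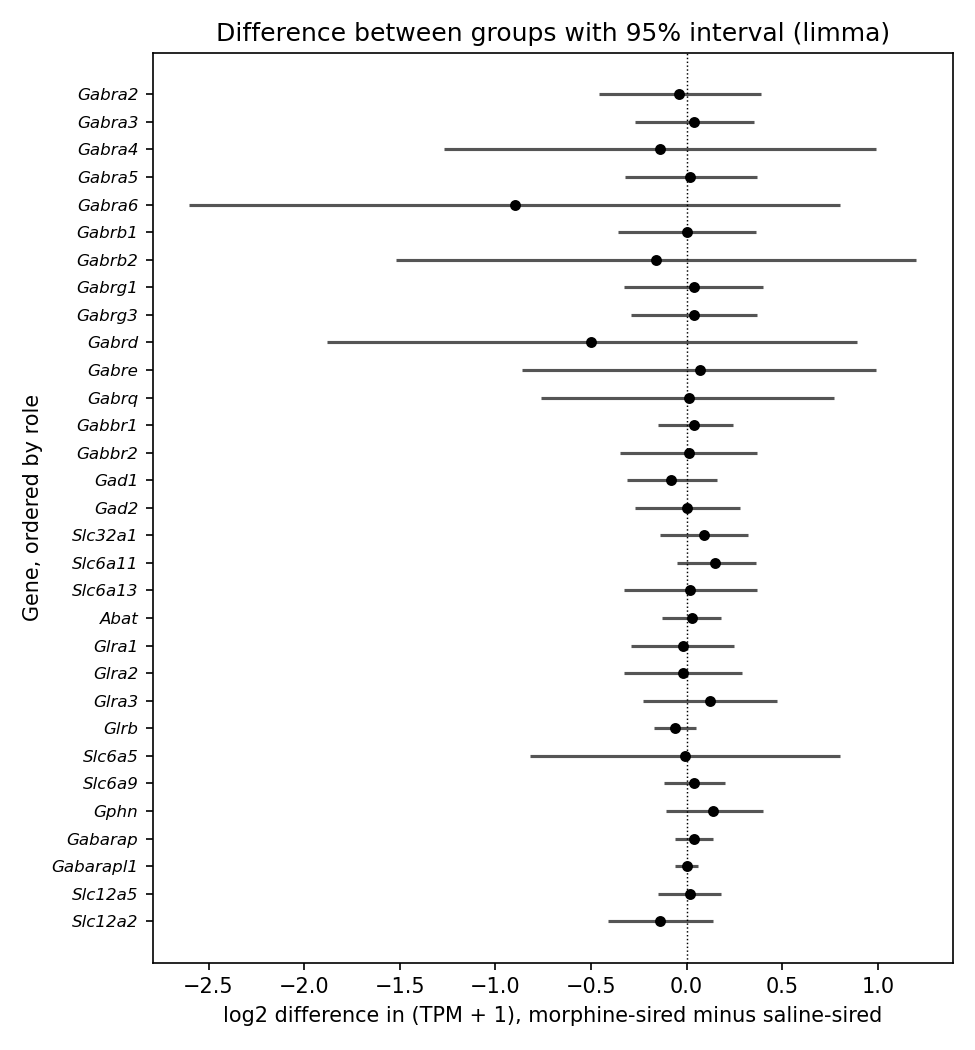
Log2 difference in TPM + 1 between morphine-sired and saline-sired rats (x axis) for each of the 31 genes (y axis, by role); points are limma estimates and lines 95% intervals, n = 6 animals a group. Every interval crosses 0, and the widest belong to Gabra6, Gabrd, Gabrb2 and Gabra4. Gabrb2 is shown for its annotated transcript alone.

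**Figure D2:**
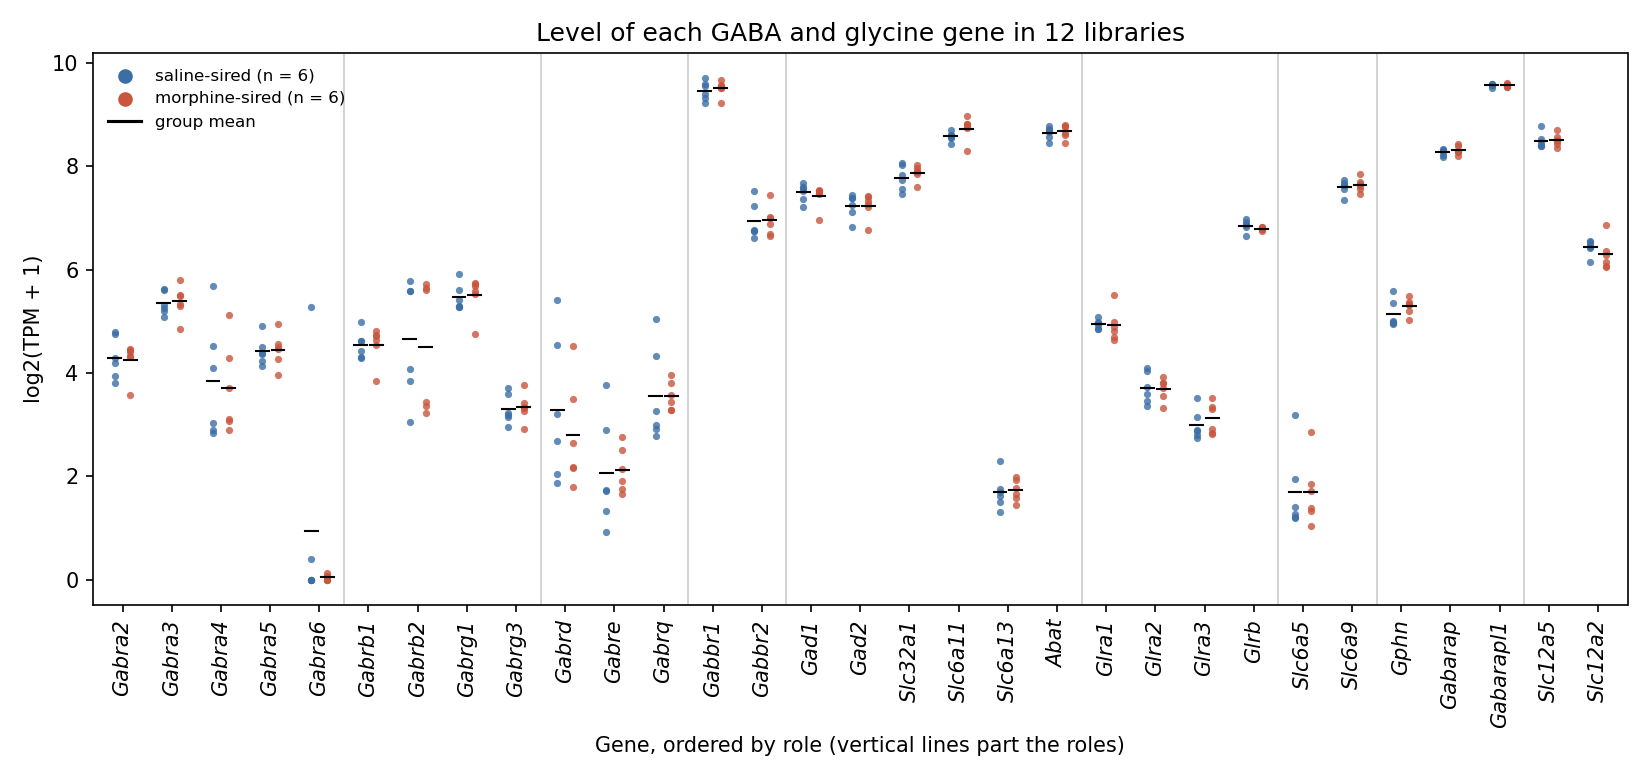
Level of each gene as log2(TPM + 1) (y axis) in the 6 saline-sired and 6 morphine-sired libraries; each point is 1 animal, short lines are group means and vertical lines part the roles. Gabbr1 and Gabarapl1 stand highest, the points of Gabarapl1 lie almost on top of each other, and those of Gabra4, Gabrb2, Gabrd, Gabre and Gabrq are spread out within both groups.

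Among the listed alpha subunits, which with the beta subunits form the GABA binding site, Gabra3 had the highest mean and was the most abundant in 10 of the 12 libraries. In saline-sired rats it was lowest at 33.0, median 38.0 and highest at 48.4 TPM, and in morphine-sired rats 28.1, 41.8 and 55.1 TPM. The groups overlapped over most of this range, with a log2 difference of 0.04 ± 0.14 (SE, n = 6 a group). Gabra3 made up 31.0% to 45.8% of the summed TPM of the 5 listed alpha genes, Gabra5 15.7% to 30.6%, Gabra2 10.6% to 28.9% and Gabra4 5.8% to 37.4%. Gabra4 led in saline-sired 6 (37.4% against 35.7% for Gabra3), and Gabra6 led in saline-sired 2 (35.3% against 31.0%) and was at most 0.362% elsewhere. The order of Gabra2 and Gabra5 was not the same in all libraries, and their mean shares of 19.4% ± 5.14 and 21.5% ± 4.13 (SD, n = 12) differed by less than the spread. Gabra2, the alpha subunit of synapses on many projection neurons, lay at 13, 17.9 and 26.6 TPM in saline-sired and at 11.0, 19.6 and 21.1 TPM in morphine-sired rats. Gabra5, an alpha subunit of extrasynaptic receptors, lay at 16.7, 19.9 and 29.3 TPM and at 14.5, 21.5 and 30.0 TPM. For Gabra2 88.9% of the level came from assembled transcripts, which carry no name of their own in the annotation and were given to the gene of their locus.

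Gabra4, the alpha subunit that joins the delta subunit in thalamic relay neurons, varied more between animals than between groups. Saline-sired 1 to 6 held 22.0, 6.18, 6.5, 7.22, 16.1 and 50.3 TPM, and morphine-sired 1 to 6 held 34.1, 7.63, 6.5, 18.6, 7.42 and 12.1 TPM. The high libraries were saline-sired 6 and morphine-sired 1, 1 in each group. The log2 difference was -0.14 ± 0.52 (SE). It was -0.43 without morphine-sired 1, 0.22 without saline-sired 6 and 0.20 without saline-sired 1 and 6 and morphine-sired 1.

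Gabrd, the delta subunit of receptors that lie outside synapses, held 8.21, 22.4, 3.15, 2.66, 5.44 and 41.4 TPM in saline-sired 1 to 6 and 22.1, 3.48, 3.54, 10.3, 2.45 and 5.24 TPM in morphine-sired 1 to 6. Saline-sired 6 was again highest, and morphine-sired 1 was highest in its group. The highest library held 16.9 times the level of the lowest, and the log2 difference of -0.50 ± 0.64 (SE) had an interval from -1.88 to 0.89. It was -0.07 without saline-sired 6, -0.24 without saline-sired 2, -0.29 without morphine-sired 5, -0.78 without saline-sired 4 and -0.84 without morphine-sired 1.

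The thalamic marker Prkcd was highest in the same libraries as Gabra4. Its level was 218 TPM in saline-sired 6, 116 in morphine-sired 1, 56.3 in morphine-sired 4, 34.7 in saline-sired 1, 22.7 in saline-sired 5 and 16.3 in morphine-sired 6, and 4.50 to 10.6 TPM in the other 6. These are the 6 libraries in which Gabra4 passed 12 TPM. Of the other thalamic markers, Gbx2, Synpo2 and Ntng1 had the same 6 libraries on top, and Tcf7l2, Lef1, Ramp3 and Plcb4 did not. Tcf7l2 was at 105 TPM in morphine-sired 5, where Gabra4 was at 7.42 TPM, and at 91.5 TPM in morphine-sired 1. Gabrd did not wholly go with it, since saline-sired 2 held 22.4 TPM of Gabrd at 10.6 TPM of Prkcd. All 8 markers of the thalamic list were highest in saline-sired 6, and none was at 0 in any library. Their part in the levels of Gabra4 and Gabrd was not tested.

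Gabra6, the alpha subunit of cerebellar granule cells, was detected at any level in 1 library above all. Saline-sired 2 held 37.6 TPM, saline-sired 5 held 0.316 TPM, and the other 10 libraries lay between 0 and 0.0953 TPM. The mean of 6.33 TPM in saline-sired rats therefore comes from 1 animal, and the log2 difference of -0.90 ± 0.78 (SE) became -0.04 without it. Only through this animal did Gabra6 pass the filter of a mean of 0.5 TPM, so its test and interval rest on saline-sired 2. The granule cell markers Fat2 and Cbln3 were at 10.0 and 33.8 TPM in saline-sired 2 and at most 0.0509 and 0.217 TPM elsewhere, and Neurod1 was at 31.0 TPM there against 0.569 to 3.13 TPM. The other 4 markers of the list (Barhl1, Pax6, Grin2c and Zic1) were highest in other libraries. The summed level of the 7 granule cell markers was 170 TPM in that library, 39.7 to 99.7 TPM in the other saline-sired and 41.5 to 112 TPM in the morphine-sired libraries. The part of these cells in the level of Gabra6 was not tested. Gabrd in saline-sired 2 (22.4 TPM) was also the second highest of the 12.

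Gabre and Gabrq, which code for the epsilon and theta subunits and lie on either side of Gabra3 on chromosome X (build Rnor_6.0, Gabre at 152218707 to 152237361, Gabra3 at 152414615 to 152642531 and Gabrq at 152852506 to 152868999), followed each other from animal to animal. Both subunits are known from monoaminergic and other deep brain nuclei. Gabre held 2.27, 12.7, 6.46, 1.52, 2.32 and 0.892 TPM in saline-sired 1 to 6 and 2.77, 5.80, 4.74, 2.38, 3.40 and 2.17 TPM in morphine-sired 1 to 6. Gabrq held 8.63, 32.0, 19.2, 5.86, 7.02 and 6.51 TPM and then 11.0, 14.7, 13.1, 9.79, 8.70 and 8.72 TPM. In both genes saline-sired 2 was highest, followed by saline-sired 3, morphine-sired 2 and morphine-sired 3. Gabra3, which lies between them, had its highest level in morphine-sired 1 and its lowest in morphine-sired 2.

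Tph2 had the same 4 libraries on top in the same order, at 445, 196, 195 and 39.1 TPM, and was at 0.450 to 23.1 TPM in the other 8. Slc6a4, the serotonin transporter, was at 398, 173, 161 and 32.3 TPM in these 4 libraries, and Fev, a transcription factor of serotonergic neurons, was at 0 in 4 libraries. Of the other markers of the list, Ddc also had the 4 leading libraries of Tph2 on top, and Htr1a and Slc22a3 did not. Htr1a was at 14.7 TPM in morphine-sired 3 and at 16.6 TPM in morphine-sired 5. Slc22a3 was at 0.882 TPM in morphine-sired 3 and at 3.0 TPM in morphine-sired 1. Below the leading 4 libraries the order did not hold, since saline-sired 4 and 5 with 22.7 and 23.1 TPM of Tph2 held less Gabrq than 6 and 5 of the 6 libraries in which Tph2 was at most 3.05 TPM. The part of serotonergic neurons in the level of Gabre and Gabrq was not tested. The group difference was 0.07 ± 0.43 for Gabre and 0.01 ± 0.35 for Gabrq (log2, SE), and it was 0.41 and 0.30 without saline-sired 2, with unadjusted p of 0.234 and 0.262 (limma).

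**Figure D3:**
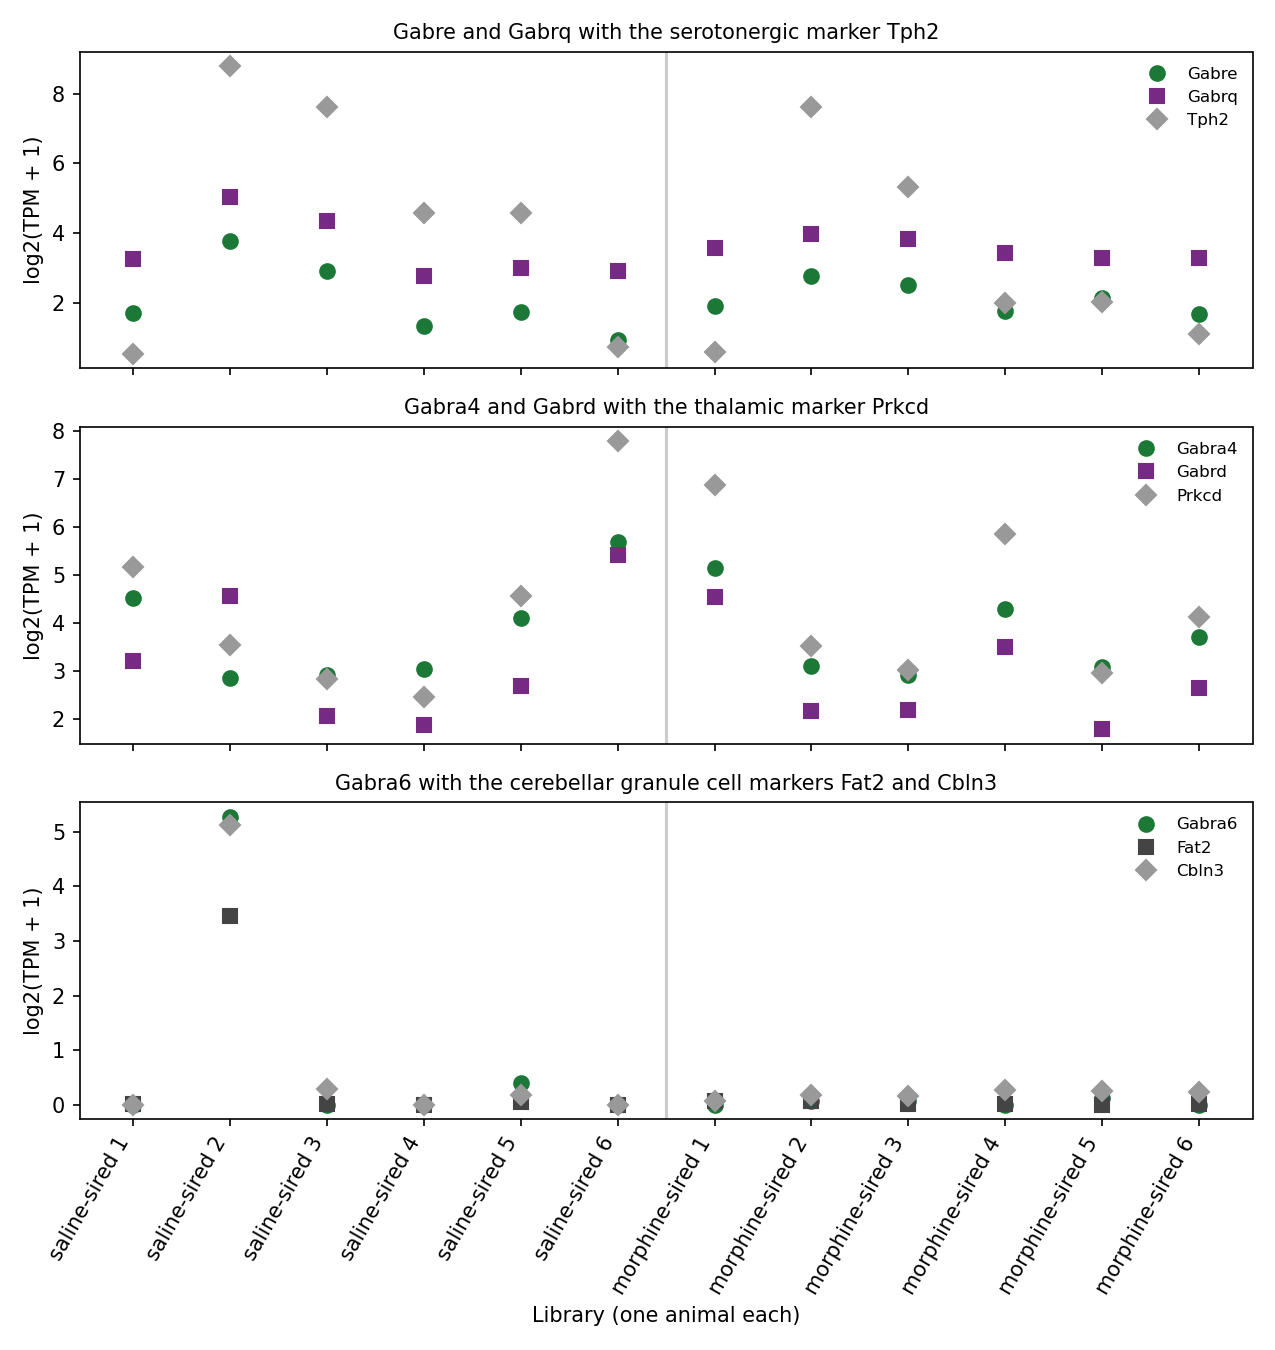
Levels as log2(TPM + 1) (y axis) in each of the 12 libraries (x axis, saline-sired left and morphine-sired right of the line) for Gabre and Gabrq with Tph2, for Gabra4 and Gabrd with Prkcd, and for Gabra6 with Fat2 and Cbln3. Each symbol is the value of 1 animal; Gabre, Gabrq and Tph2 are highest in saline-sired 2, Gabra4, Gabrd and Prkcd in saline-sired 6, and Gabra6, Fat2 and Cbln3 stand above 1 on this scale in saline-sired 2 alone.

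The starts of these 4 genes are shown because Gabre and Gabrq led in the same libraries and because Gabra4 and Gabrd, whose proteins can join in 1 receptor, did so in part: saline-sired 2 was the second highest for Gabrd and the lowest for Gabra4. The sequences are from RefSeq (build GRCr8, not the build of the files), 250 bases before to 50 after the annotated start, 5′ to 3′ on the gene's strand. Capitals mark GGGCGG, the GC box, on either strand in Gabre, Gabrq and Gabrd, and GCGNGGGCG, a motif of early growth response factors, on either strand in Gabra4.
Gabre promoter (chrX:155120672-155120971, minus strand): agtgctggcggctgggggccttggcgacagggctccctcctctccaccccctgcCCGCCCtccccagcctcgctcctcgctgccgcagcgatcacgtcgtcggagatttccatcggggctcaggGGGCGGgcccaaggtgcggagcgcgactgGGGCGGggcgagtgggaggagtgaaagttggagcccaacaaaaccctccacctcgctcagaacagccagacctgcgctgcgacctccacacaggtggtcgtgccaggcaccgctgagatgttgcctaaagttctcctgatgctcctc
Gabrq promoter (chrX:155738186-155738485, plus strand): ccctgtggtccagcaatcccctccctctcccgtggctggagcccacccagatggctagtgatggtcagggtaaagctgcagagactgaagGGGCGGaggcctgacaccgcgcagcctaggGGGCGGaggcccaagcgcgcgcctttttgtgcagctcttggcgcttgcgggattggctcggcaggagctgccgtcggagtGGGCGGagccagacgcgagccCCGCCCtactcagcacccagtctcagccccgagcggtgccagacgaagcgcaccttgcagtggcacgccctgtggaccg
Gabrd promoter (chr5:171252660-171252959, minus strand): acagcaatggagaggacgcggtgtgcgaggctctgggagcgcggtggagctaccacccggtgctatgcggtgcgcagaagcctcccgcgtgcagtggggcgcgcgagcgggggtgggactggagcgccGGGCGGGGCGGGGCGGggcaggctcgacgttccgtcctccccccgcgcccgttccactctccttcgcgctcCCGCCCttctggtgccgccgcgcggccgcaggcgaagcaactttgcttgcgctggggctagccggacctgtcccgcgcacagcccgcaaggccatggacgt
Gabra4 promoter (chr14:36944497-36944796, plus strand): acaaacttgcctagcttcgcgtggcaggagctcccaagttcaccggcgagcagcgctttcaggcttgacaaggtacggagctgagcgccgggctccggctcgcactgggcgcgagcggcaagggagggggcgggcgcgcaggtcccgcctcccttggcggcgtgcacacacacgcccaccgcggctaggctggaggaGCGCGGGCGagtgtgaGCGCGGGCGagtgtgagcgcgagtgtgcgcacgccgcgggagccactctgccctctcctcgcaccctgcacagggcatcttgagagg

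All 4 windows are rich in G and C, with 67.3% in Gabre, 68.3% in Gabrq, 73.7% in Gabrd and 70.7% in Gabra4, against a median of 51.7% over the 33469 rat promoters of this length in the table. GGGCGG was found 3 times in Gabre, 4 times in Gabrq, 4 times in Gabrd, where 3 of the matches run into each other, and 1 time in Gabra4, where it is not in capitals. It occurs in 33.1% of all promoters and in 20 of the 27 tested members with a sequence, so it is not particular to these 4 genes. GCGNGGGCG was found 2 times in Gabra4, 53 and 37 bases before the start, and in 4.98% of all promoters. Among the 27 tested members with a sequence in the table, 4 held it (Gabra4, Gad1, Glra3 and Glrb). TATAAA was in none of the 4 windows shown and in 14.2% of all promoters. A match is a run of letters and not a measured binding site.

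Gabrg1, a gamma subunit of glia and of some deep nuclei, had the highest mean of the listed beta and gamma subunits as counted, at 44.7 TPM. Assembled transcripts made up 63.9% of it, while those of the Gabrb2 locus were not counted in Gabrb2. On annotated transcripts alone Gabrb2 had the higher mean, at 30.1 against 16.2 TPM. With assembled transcripts in both, saline-sired and morphine-sired means were 44.5 and 42.3 TPM for Gabrb2 and 43.8 and 45.6 TPM for Gabrg1. Gabrg1 lay at 37.9, 40.0 and 59.3 TPM (lowest, median and highest) in saline-sired and at 26.0, 49.0 and 52.9 TPM in morphine-sired rats. Gabrb1 lay at 18.7, 22.0 and 30.7 TPM and at 13.3, 24.5 and 27.2 TPM, and Gabrg3, a less common gamma subunit, at 6.81, 8.23 and 12.1 TPM and at 6.53, 9.14 and 12.7 TPM. In Gabrg1, Gabrb1 and Gabrg3 the lowest library was morphine-sired 2 and the groups overlapped. The log2 differences were 0.04 ± 0.17, 0.00 ± 0.17 and 0.04 ± 0.15 (SE). Gabrb1, Gabra4, Gabra2 and Gabrg1 lie in this order on chromosome 14 (38631261 to 40051295, build Rnor_6.0), and of these 4 only Gabra4 had an SD over the libraries above 0.5.

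The annotated transcript of Gabrb2, a beta subunit of synaptic receptors, fell into a high and a low set of libraries that did not follow the groups. This transcript of 2098 bases held 54.3, 13.4, 47.0, 7.29, 47.2 and 15.9 TPM in saline-sired 1 to 6 and 51.9, 8.32, 9.82, 49.2, 47.5 and 9.23 TPM in morphine-sired 1 to 6. Thus 6 libraries lay between 47.0 and 54.3 TPM and 6 between 7.29 and 15.9 TPM, 3 of each group in either set. The locus also holds 2 assembled transcripts of 7516 and 7550 bases, which were not counted in the gene because a placeholder symbol shares the locus. In each library of the low set the more abundant of these 2 was at 10.8 to 26.2 TPM, and in the high set at 5.39 to 8.15 TPM. The annotated and assembled forms thus went in opposite directions. Counted with both assembled transcripts in TPM, the same sets stayed apart, at 52.4 to 61.1 TPM and at 26.8 to 42.1 TPM. As covered bases (coverage times length, per gigabase of library) the annotated transcript alone had a range of 7.21-fold, close to its 7.44-fold in TPM. The whole locus with the assembled transcripts ran from 59.7 to 98.1 kilobases, a range of 1.64-fold, and the sets overlapped. The highest value in covered bases was in saline-sired 6, whose annotated transcript was among the low ones. The group difference was -0.16 ± 0.63 for the annotated transcript in TPM, -0.15 ± 0.62 for it in covered bases and -0.05 ± 0.10 for the whole locus in covered bases (log2, SE, adjusted p 0.9992 for the last, limma).

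**Figure D4:**
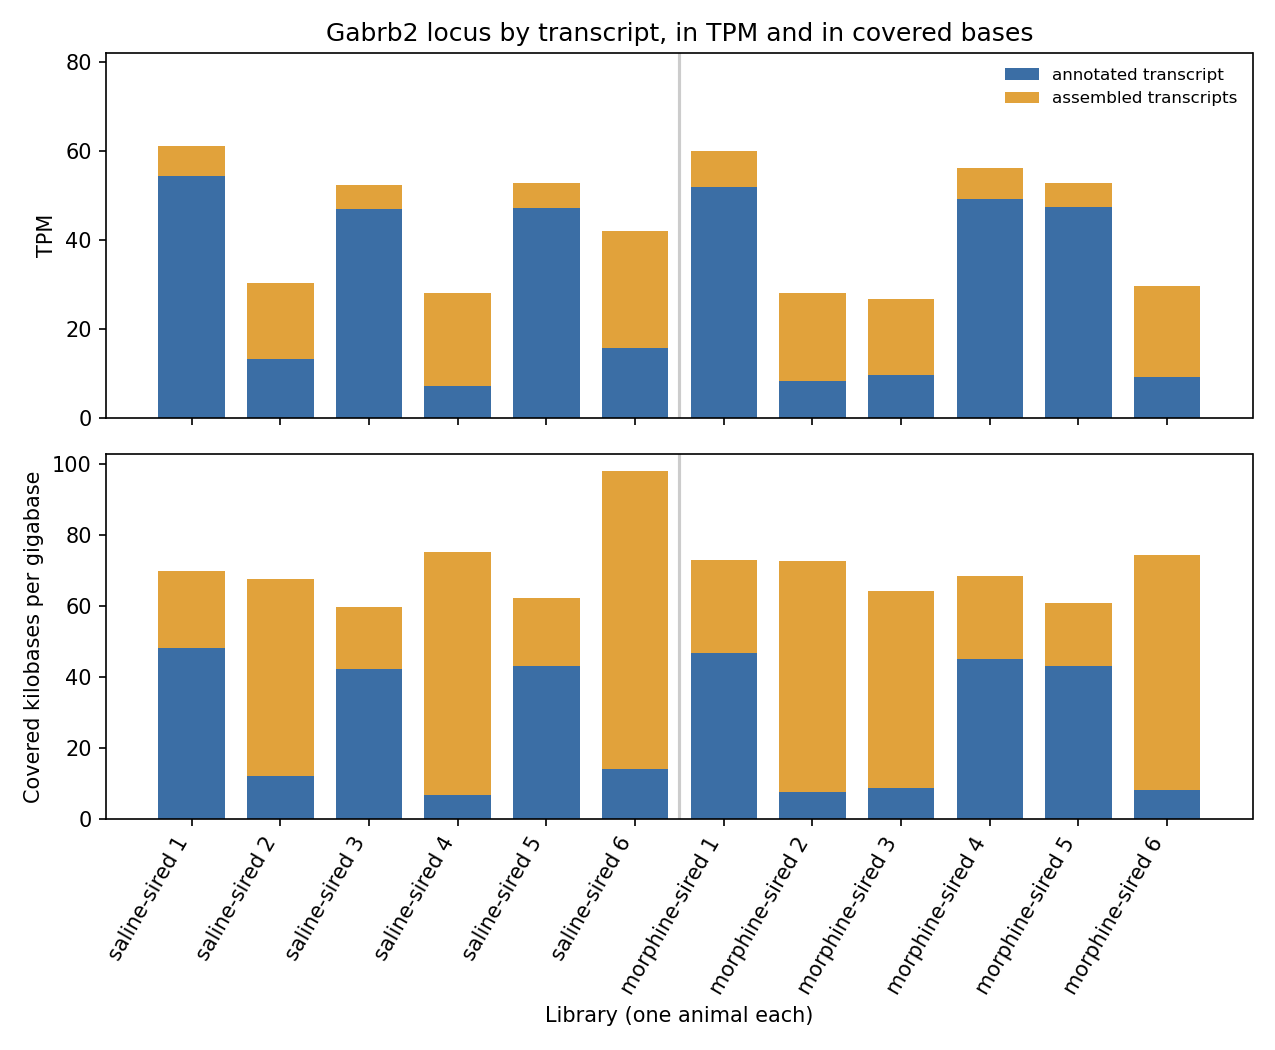
Gabrb2 locus in each library (x axis), as TPM (upper panel) and as covered kilobases per gigabase of library (lower panel), stacked by the annotated transcript and the 2 longer assembled transcripts. The annotated transcript is high in 6 libraries and low in 6, while the whole locus in covered bases lies between 59.7 and 98.1.

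Gabbr1 and Gabbr2 code for the subunits of the GABA-B receptor, of which the first binds GABA and the second couples to the G protein. Gabbr1 was at 599, 713 and 837 TPM (lowest, median and highest) in saline-sired and at 595, 743 and 815 TPM in morphine-sired rats. Gabbr2 was at 97.6, 108 and 183 TPM and at 100 (lowest), 122 and 174 TPM. Neither group stood apart, with log2 differences of 0.04 ± 0.09 and 0.01 ± 0.17 (SE). Gabbr2 was highest in saline-sired 6 and morphine-sired 1, the libraries with the most Prkcd. Gabbr1 exceeded Gabbr2 by 4.58 to 7.45 times in TPM, least in saline-sired 6 and most in morphine-sired 3. This ratio rests on assembled transcripts, which made up 40.0% of Gabbr1 and 91.4% of Gabbr2.

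Gad1 and Gad2, the glutamic acid decarboxylases that make GABA, were close to each other in every library. Gad1 was at 148, 187 and 205 TPM in saline-sired and at 123, 182 and 185 TPM in morphine-sired rats, and Gad2 at 112, 160 and 173 TPM and at 108, 156 and 172 TPM. The lowest library of both genes was morphine-sired 2, and saline-sired 6 was the lowest of its group. The log2 differences were -0.08 ± 0.11 and 0.00 ± 0.13 (SE). The ratio of Gad1 to Gad2 ran from 1.15 to 1.32 in saline-sired and from 1.05 to 1.20 in morphine-sired rats, a log2 difference of -0.08 with an exact permutation p of 0.11 (two-sided, adjusted 0.776 over 8 ratios).

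The level of Gad1 was divided between its transcripts mainly in 2 ways. A transcript of 17 exons (ENSRNOT00000000008) held 14.3, 19.1, 13.3 and 22.6 TPM in saline-sired 2 and 3 and morphine-sired 2 and 3, and 117 to 149 TPM in the other 8 libraries. A transcript of 16 exons (ENSRNOT00000087712) that starts 1295 bases further into the gene was at 170, 136, 87.6 and 158 TPM in those 4 libraries and at 30.8 to 59.8 TPM elsewhere. The 17-exon form was thus 7.48% to 12.5% of Gad1 in 4 libraries, 2 of each group, and 69.0% to 81.5% in 8. The 4 libraries are the ones with the most Tph2, Gabre and Gabrq, and the part of the tissue sampled in this split was not tested. Between offspring groups the 17-exon and 16-exon forms differed by 0.09 ± 0.80 and -0.09 ± 0.48 (log2, SE). The program that made the values divides reads among overlapping transcripts, so the forms are less certain than their sum.

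**Figure D5:**
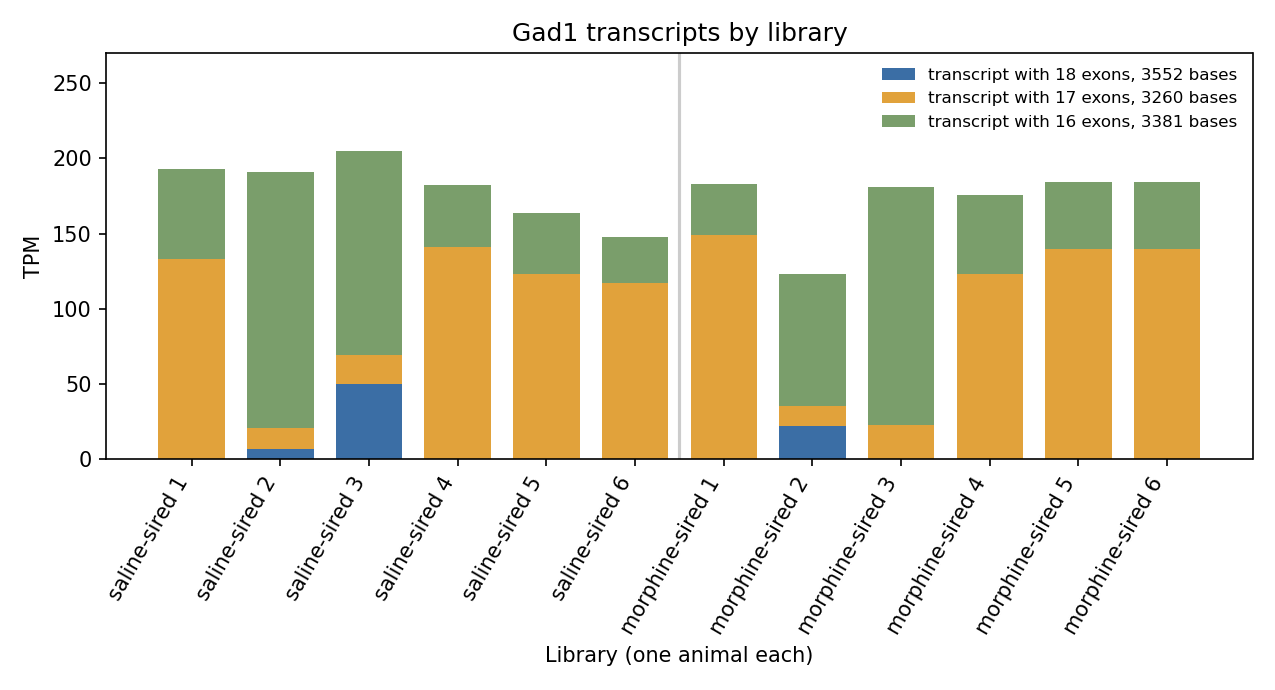
TPM of the Gad1 transcripts with a mean of at least 0.5 TPM (y axis, stacked) in each library (x axis), named by exons and length. The sum lies between 123 and 205 TPM, while the 17-exon form is low in saline-sired 2 and 3 and morphine-sired 2 and 3 and high in the other 8.

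Slc32a1, the vesicular transporter that loads both GABA and glycine, was at 176, 219 and 266 TPM in saline-sired and at 194, 238 and 259 TPM in morphine-sired rats, with a log2 difference of 0.09 ± 0.11 (SE). Abat, the transaminase that breaks GABA down, was at 349, 412 and 438 TPM and at 348, 419 and 446 TPM, a difference of 0.03 ± 0.07. Slc6a13, a GABA transporter of meninges and vessels, was low throughout, at 1.49, 2.17 and 3.92 TPM in saline-sired rats and at 1.73, 2.29 and 2.96 TPM in morphine-sired rats. Its highest library, saline-sired 2, had the highest level of 5 of 9 meningeal markers (Col1a1, Col1a2, Col3a1, Aldh1a2 and Slc22a6) and not of Dcn, Lum, Igf2 and Foxc1. The 9 markers summed to 30.7 to 55.1 TPM in saline-sired and to 29.2 to 52.9 TPM in morphine-sired rats. Their part in the level of Slc6a13 was not tested.

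Slc6a11, the GABA transporter of astrocytes, had the smallest p of all members. Saline-sired 1 to 6 held 419, 388, 389, 381, 376 and 346 TPM, and morphine-sired 1 to 6 held 451, 313, 500, 454, 426 and 431 TPM. Of the 6 morphine-sired libraries, 5 lay above every saline-sired one and morphine-sired 2 lay below all of them. The means were 383 ± 23.8 and 429 ± 62.8 TPM (SD, n = 6 each), the log2 difference was 0.15 ± 0.09 (SE, interval -0.05 to 0.36) and the unadjusted p was 0.131 (limma, adjusted 0.9998). Without morphine-sired 2 the difference was 0.24 with an unadjusted p of 0.00102, which was still not a call (adjusted p 0.688 over all genes), and in that fit 6.00% of all genes had an unadjusted p under 0.05. Of the 8 astrocyte markers, 7 had a fitted difference above 0, and 0 were called. Their summed level, most of it S100b and Aldoc, was 4620 to 5540 TPM in saline-sired and 5000 to 5740 TPM in morphine-sired rats. Morphine-sired 2, the library with the least Slc6a11, was also the lowest of the 12 for 5 of the 8, with Gfap at 229, Aqp4 at 162, Slc1a3 at 145, Slc1a2 at 231 and Gja1 at 146 TPM. The part of these markers in the level of Slc6a11 was not tested.

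The glycine receptor genes were led by Glrb, the beta subunit that binds gephyrin. Glrb lay at 100 (lowest), 116 and 125 TPM in saline-sired and at 107, 110 (median) and 113 TPM in morphine-sired rats, and the morphine-sired values fell inside the saline-sired range. The log2 difference was -0.06 ± 0.05 (SE). Of the alpha subunits, which bind glycine, Glra1 was at 27.8, 30.0 and 33.0 TPM and at 24.0, 28.1 and 44.7 TPM, Glra2 at 9.32, 11.6 and 16.1 TPM and at 9.05, 12.5 and 14.2 TPM, and Glra3 at 5.72, 6.39 and 10.5 TPM and at 6.05, 7.73 and 10.4 TPM. The high value of Glra1 was that of morphine-sired 2, whose Glra2 was the lowest of the 12. The 3 alpha subunits summed to 0.366 to 0.547 of the level of Glrb, and this ratio did not separate the groups (exact permutation p 0.485, adjusted 0.776). It rests on assembled transcripts, which made up 89.0% of Glra1 and 83.3% of Glra3 and no part of Glra2 or Glrb.

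Slc6a9, the glycine transporter of glia, was at 163, 198 and 212 TPM in saline-sired and at 175, 198 and 229 TPM in morphine-sired rats. Slc6a5, the glycine transporter that defines glycinergic neurons, was far lower, and held 1.33, 8.17, 2.84, 1.64, 1.3 and 1.42 TPM in saline-sired 1 to 6 and 1.5, 2.61, 6.22, 1.62, 2.31 and 1.06 TPM in morphine-sired 1 to 6. Saline-sired 2 and morphine-sired 3 stood above the others, 1 in each group. The log2 differences were 0.04 ± 0.07 for Slc6a9 and -0.01 ± 0.37 for Slc6a5 (SE), and the latter was 0.29 without saline-sired 2 and -0.24 without morphine-sired 3. Slc6a5 was 0.00508 to 0.0438 of the level of Slc6a9.

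Gphn codes for gephyrin, which anchors glycine receptors and many GABA-A receptors, and Gabarap and Gabarapl1 for proteins of receptor trafficking and autophagy. Gabarapl1 was the most abundant member (mean 760 TPM) and the steadiest, at 732 to 772 TPM in saline-sired and 744 to 787 TPM in morphine-sired rats. Its SD was 0.03 on the log2 scale, and 2 of the 24540 genes tested had a smaller one. Gabarap ran from 290 to 323 TPM and from 295 to 346 TPM, and the ratio of the first to Gabarapl1 did not separate the groups (Gabarap over Gabarapl1 0.386 to 0.451, exact permutation p 0.346, adjusted 0.776). Gphn held 46.9, 30.0, 31.3, 30.8, 30.2 and 40.2 TPM in saline-sired 1 to 6 and 31.5, 38.7, 35.9, 39.7, 40.4 and 43.8 TPM in morphine-sired 1 to 6. The difference of 0.14 ± 0.12 (log2, SE, unadjusted p 0.241, limma) was -0.01 on covered bases, on which the highest library held 1.23 times the lowest, against 1.56 times in TPM. Its level was divided over 10 transcripts of 2 annotated and 8 assembled forms.

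The chloride transporters set whether GABA and glycine receptors inhibit. Slc12a5, the neuronal exporter KCC2, was at 334, 347 and 439 TPM in saline-sired and at 329, 360 and 419 TPM in morphine-sired rats, a log2 difference of 0.02 ± 0.07 (SE). Slc12a2, the importer NKCC1, which in adult tissue is found in glia and choroid plexus more than in neurons, held 92.5, 69.9, 88.5, 93.6, 84.7 and 86.3 TPM in saline-sired 1 to 6 and 70.2, 115, 65.5, 77.1, 66.4 and 81.5 TPM in morphine-sired 1 to 6. The highest value, in morphine-sired 2, came with the highest level of 6 of 7 oligodendrocyte markers. Of 7 choroid plexus markers, Ttr (1760 TPM), Kl and Kcne2 were highest there, but Folr1 (28.3 TPM), Clic6 (14.5 TPM) and Prlr (3.88 TPM) were highest in morphine-sired 3, which held the least Slc12a2. The part of these markers in the level was not tested. The difference was -0.14 ± 0.13 (log2, SE), and without morphine-sired 2 it was -0.25 with an unadjusted p of 0.0119 (limma, adjusted 0.819). Slc12a5 exceeded Slc12a2 by 3.61 to 5.07 times in saline-sired and by 2.85 to 6.30 times in morphine-sired rats (exact permutation p 0.429, adjusted 0.776).

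None of the 8 ratios between members passed the test. With 6 against 6 animals the exact permutation test runs over all assignments and can reach a p of 0.00216, and the smallest found was 0.11, that of Gad1 to Gad2. The ratio of Slc6a11 to Slc32a1 ran from 1.45 to 2.23 (p 0.608, adjusted 0.811), that of Slc6a5 to Slc6a9 gave a p of 0.948 (adjusted 0.948) and that of Gabbr1 to Gabbr2 a p of 0.799 (adjusted 0.913), all exact. The sum of Gabra4 and Gabra6 over that of Gabra2, Gabra3 and Gabra5 spanned 0.0759 to 0.698 among saline-sired rats, against 0.083 to 0.357 among the others (exact permutation p 0.323, adjusted 0.776). The value of 0.698 is that of saline-sired 2, where Gabra6 was at 37.6 TPM and Gabra4 at 6.18 TPM, its lowest level. Gabra6 passed the filter only through this library, so the ratio and its test rest in part on 1 animal.

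Morphine-sired 2 was the lowest of the 12 libraries for 13 of the 31 members and the highest for 3. How many of all genes tested were lowest in it was not counted, so the 13 cannot be read as particular to the members. The 13 are Gabra2, Gabra3, Gabra5, Gabrb1, Gabrg1, Gabrg3, Gabbr1, Gad1, Gad2, Slc6a11, Abat, Glra2 and Slc12a5, and the 3 are Glra1, Slc6a9 and Slc12a2. This library had the highest summed oligodendrocyte (20100 TPM) and catecholamine (516 TPM) markers and the lowest ependymal ones (5.67 TPM), and 6 of 7 oligodendrocyte markers were highest in it. It was the lowest for 5 of 8 astrocyte markers. Of 8 neuronal markers it was the lowest for Rbfox3 (62.7 TPM), Eno2 (507 TPM) and Syn1 (286 TPM) and the highest for Nefl (2420 TPM), Tubb3 (1190 TPM) and Stmn2 (492 TPM). TPM values of a library share 1 total, so these levels are not independent of each other, and the part of the markers in the low levels was not tested.

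At the level of transcripts, 0 of the 91 member transcripts tested were called at an adjusted p under 0.05, against 1 of 50419 (0.00198%). At an unadjusted p under 0.05 there were 4 of 91, where 3.77% of all transcripts were found, and 0 whose groups did not overlap (0.105% of all). The 4 were ENSRNOT00000078531 of Gabbr1 (-1.29 ± 0.52, log2, SE), the assembled MSTRG.14468.6 of Gabbr1 (2.46 ± 1.03), MSTRG.20965.5 of Gphn (-0.94 ± 0.41) and ENSRNOT00000011573 of Gabbr2 (1.21 ± 0.55), all with an adjusted p of 1.0 (limma). The Gabbr1 transcripts rest on 3 morphine-sired libraries. MSTRG.14468.6 was at 22.6, 23 and 47.7 TPM in morphine-sired 2, 4 and 6 and at most 0.00639 TPM elsewhere, and ENSRNOT00000078531 was at 0.0541, 0.264 and 0.00216 TPM in these 3 and at 3.56 to 8.43 TPM elsewhere. They make up 1.07% and 0.533% of the TPM of Gabbr1. Other forms jumped between libraries without following the groups. MSTRG.14468.3 of Gabbr1 was at 60.7 to 80.2 TPM in saline-sired 4 and 5 and morphine-sired 2 and 5 and at 279 to 443 TPM elsewhere, and a short form of Slc12a5 (MSTRG.16816.3) was at 112 TPM in saline-sired 3, at 59.6 TPM in morphine-sired 5 and at most 0.392 TPM elsewhere.

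Genes that work with the members were not called either. Of 70 genes in 6 lists of the pathway, 3 were not found under their symbols (Kctd8, Kctd12 and Kctd16, auxiliary subunits of GABA-B receptors) and 3 lay below 0.5 TPM. Of the 65 gene models tested, 0 were called and 0 had an unadjusted p under 0.05, beside 0.0% and 3.22% of all genes. Among organisers of inhibitory synapses and genes of receptor trafficking (18 models), the smallest p belonged to Nlgn2, an adhesion protein of inhibitory synapses, at 7.31 ± 2.05 TPM in saline-sired and 9.99 ± 3.44 TPM in morphine-sired rats (SD, n = 6 each; log2 difference 0.38, limma p 0.108, adjusted 0.9998). Hap1, a partner of receptor transport, was at 277 ± 52.4 and 327 ± 70.4 TPM, and Trak2, a motor adaptor, at 106 ± 12.3 and 96.5 ± 22.9 TPM. Among genes of GABA and glycine metabolism (15 models), the glutamine transporter Slc38a3 was at 72.4 ± 5.09 and 79.7 ± 11.3 TPM and Gcsh, of the glycine cleavage system, at 98.4 ± 5.10 and 94.8 ± 4.53 TPM. Among genes of chloride regulation (12 models), the cotransporter Slc12a4 was at 18.4 ± 1.80 and 20.7 ± 3.14 TPM and the kinase Wnk2 at 69.2 ± 7.36 and 73.9 ± 5.31 TPM.

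Transcription factors of GABA neurons (12 models) had a smallest p of 0.447 (limma), that of Dlx1 at 0.781 ± 0.295 and 0.645 ± 0.681 TPM. Peptides and calcium-binding proteins of inhibitory neurons (8 models) had the largest median difference of the 6 pathway lists, 0.15 on the log2 scale. In this list Tac1, the substance P precursor, was at 60.7 ± 17.5 and 84.1 ± 36.6 TPM, Pvalb, parvalbumin, at 415 ± 101 and 342 ± 118 TPM, Cck, cholecystokinin, at 142 ± 46.1 and 172 ± 45.7 TPM, and Calb2, calretinin, at 261 ± 66.3 and 298 ± 54.6 TPM. In this list 0 of the 8 reached an unadjusted p of 0.05, and 5 had a fitted difference above 0.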

How the data were processed

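PolyA RNA libraries of the periaqueductal grey from 12 rats were compared. Per the submitters' processing notes, Trimmomatic 0.39, HISAT2 2.2.0, SAMtools 1.11, StringTie 2.1.2 and build Rnor_6.0 were used. Per the file headers, the deposited files were written by StringTie 1.3.6, and give for each of 76232 transcripts a coverage (mean read depth per base, a signal not normalized), FPKM and TPM, which the authors normalized per library. The deposited table of log2 values matched log2(FPKM + 1) of the 41063 annotated transcripts to within 4.9e-08 and served for names. Read pairing and strand are not stated in those notes or headers, so reads of overlapping genes cannot be told apart.

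TPM was summed over a gene's transcripts, with an assembled transcript of a locus that has 1 symbol given to that symbol (27.6% to 29.6% of the TPM of a library). Genes and transcripts with a mean of at least 0.5 TPM were tested on log2(TPM + 1), a scale on which differences of low genes look smaller, with limma 3.58.1 in R 4.3.3 (eBayes with trend, two-sided, Benjamini-Hochberg over all features tested), on the sire's treatment alone. Values of "± SE" come from this fit. The fit was tested on simulated data. Ratios of TPM per library were compared with an exact permutation test over all assignments (two-sided, adjusted over 8 ratios; scipy 1.17.1 in Python 3.11.15). Depth is the total of bases implied by coverage and FPKM, and covered bases are coverage times length per gigabase of depth. Depth limits the low genes most, and intervals give the precision.

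Named were all members, up to 4 genes with the smallest p of each pathway list, the leading transcript of a member and up to 8 with the smallest p, and defining markers; Gad1, Gabrb2, Gabbr1 and Slc12a5 transcripts outside this rule were chosen after their values were seen. Members and lists were chosen with earlier results of these data known, and the thalamic list after these values were seen. Alternatives were another pseudocount, no filter, annotated transcripts alone, FPKM, quantile normalization, no trend, library weights, covered bases, placeholder symbols ignored and libraries left out. Promoters came from RefSeq for 29 of the 33 listed genes; those of Slc6a13, Glra1, Gabra2 and Abat were not used here. A planned comparison of protein sequences was not run.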

Additional observations from a re-analysis of the deposited data

Results flagged for a closer look

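Within each group of 6, the highest or lowest library of each of the 31 genes and 8 ratios was set against Dixon's 95% limit for the gap to the next value as a share of the range. For independent groups of normal values chance flags about 1 in 20, and 17 values were found in 78 groups. These groups share the same 12 libraries, and Slc6a5 counts again in a ratio, so the 17 cannot be set against that rate. The 17 values belong to 5 libraries.

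Morphine-sired 2 was low for Gabra2 (11.0 TPM, the other morphine-sired rats 18.9 to 21.1), Gabrb1 (13.3 against 22.4 to 27.2), Gabrg1 (26.0 against 45.2 to 52.9), Gabbr1 (595 against 737 to 815) and Gad1 (123 against 176 to 185). It was high for Glra1 (44.7 TPM against 24.0 to 30.7) and Slc12a2 (115 against 65.5 to 81.5). Saline-sired 2 was high for Gabra6 (37.6 TPM, the other saline-sired rats 0 to 0.316), Slc6a13 (3.92 against 1.49 to 2.40), Slc6a5 (8.17 against 1.3 to 2.84) and the ratio of Slc6a5 to Slc6a9 (0.0438 against 0.00654 to 0.0139). Saline-sired 6 was high for Gabra4 (50.3 TPM against 6.18 to 22.0) and the ratio of Gad1 to Gad2 (1.32 against 1.15 to 1.20), and low for Gabarapl1, the steadiest member (732 TPM against 760 to 772). Morphine-sired 3 was high for Slc6a5 (6.22 TPM against 1.06 to 2.61) and its ratio to Slc6a9 (0.0308 against 0.00508 to 0.0123). Saline-sired 3 was high for Slc12a5 (439 TPM against 334 to 370), of which 112 TPM was the short assembled form.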

How the results depend on the processing

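No paired analysis was possible because the labels give the animals no shared replicate numbers, litters or sires. Under the 23 alternatives of the gene fit, 0 members were called, with a smallest adjusted p of 0.38 (limma, without saline-sired 2 and morphine-sired 2, where 3 members, Slc6a11, Slc12a2 and Glrb, had an unadjusted p under 0.05) and of 0.688 to 1.0 when 1 library was left out. Member transcripts (14 alternatives) and ratios (15 alternatives) also gave 0 calls, with smallest adjusted p of 0.922 and 0.381. Of 712 member values under alternatives, 114 differed in sign from the reported one, 4 of them by more than its standard error: Gabrb1 was -0.31 with annotated transcripts alone, Slc32a1 -0.03 without saline-sired 1 and 6 and morphine-sired 1, Gad1 0.04 without saline-sired 2 and morphine-sired 2, and Gphn -0.01 on covered bases, an alternative chosen after seeing the data. With annotated transcripts alone the log2 difference of the ratio of Gabbr1 to Gabbr2 was -1.48 (exact permutation p 0.0584, adjusted 0.468), and the mean shares of the alpha subunits became 2.61% for Gabra2, 53.4% for Gabra3 and 27.7% for Gabra5, since most of Gabra2 is assembled. The median SD of the members was 0.26, and 0.27 with a pseudocount of 0.1 and with annotated transcripts alone. Without saline-sired 1 and 6 and morphine-sired 1, Gphn had a difference of 0.36 with an unadjusted p of 0.000177 (limma, adjusted p 0.87). The libraries left out held its highest saline-sired levels (46.9 and 40.2 TPM) and its lowest morphine-sired one (31.5 TPM), so leaving them out widens the gap. Depth limits Slc6a13, Slc6a5, Gabre and Gabra6 most.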
